A study of Mus musculus with 8 samples.

Results

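The lipoprotein genes described here are Apoa2, Apoa4, Apob, Apoc1, Apom and Mttp. They were chosen by name, as 5 apolipoprotein genes and a lipoprotein assembly gene, and are 6 of the 712 genes of a table of cell states. Apoc3 and Clu, apolipoproteins that are also in the table, are described with the other genes of the pathway. The table came from droplet-based single-cell RNA sequencing (10x Genomics) of whole wild-type mouse embryos at 5 stages 0.5 days apart, from embryonic day 6.5 to day 8.5. All embryos had the same origin, B6D2F1 oocytes injected with sperm of B6/CAST F1 males, and they were carried by CD-1 females. The 8 libraries were pools of 4 to 10 embryos. The files give 1 score per gene in each of 42 numbered cell states, which are clusters of cells, and this score is called the level here. No column names a library, so each state was read as a pool of all 8, and no level has a replicate error, a depth or a test.

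Lipoproteins carry lipids between cells. In the rodent conceptus the visceral endoderm, the epithelium that covers the embryo and lines the yolk sac, takes up maternal nutrients on its outer face and secretes lipoproteins and other plasma proteins towards the embryo before a liver exists. Mttp, the microsomal triglyceride transfer protein, loads lipid onto Apob as it is made in the endoplasmic reticulum. Apob then stays with its particle as the structural protein of very low density lipoproteins. Apoa2, Apoa4, Apoc1 and Apom are smaller apolipoproteins that move between particles. Apoa2 is a protein of high density lipoproteins, Apoa4 is a protein of lipid export from the gut, Apoc1 modulates the clearance and remodelling of particles, and Apom is a lipocalin that carries sphingosine-1-phosphate.

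Positions below are from GENCODE M21 on GRCm38. The genes lay on 6 chromosomes. Apoa2 spanned 171225054 to 171226379 on chromosome 1 (plus strand, 4 exons), Apoa4 46240696 to 46243459 on chromosome 9 (plus strand, 3 exons) and Apob 7977648 to 8016835 on chromosome 12 (plus strand, 29 exons). Apoc1 spanned 19689481 to 19692660 on chromosome 7 (minus strand, 4 exons), Apom 35128997 to 35132050 on chromosome 17 (minus strand, 6 exons) and Mttp 138089854 to 138144968 on chromosome 3 (minus strand, 20 exons). Exon numbers are those of the longest coding transcript. Protein-coding transcripts of Mttp start at 2 places 12011 bases apart. Only Apoa4 has another measured apolipoprotein gene beside it, Apoc3, which lies 5059 bases away on the same chromosome.

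Promoter sequence was examined because 5 of the 6 genes shared 1 pattern over the states, described below. RefSeq windows from 250 bases before to 50 after the gene start (GRCm38.p6) were found for 5 of the 6 genes, all but Apoc1; where a gene had more than 1 window, the first listed was used. The search used short core motifs on both strands, namely CAAAGT and CAAAGG for HNF4, AGATAA for GATA factors, TGTTTAC for FOXA and TATAAA for the TATA box. HNF4, FOXA and GATA factors are regulators of liver and visceral endoderm genes. The Apob, Apoa4 and Apoa2 windows are shown because each holds a motif of HNF4 or FOXA, with the matches in capitals. Mttp, whose window is not shown, also has 1 such match:
Apob, chr12:7977427-7977726, plus strand: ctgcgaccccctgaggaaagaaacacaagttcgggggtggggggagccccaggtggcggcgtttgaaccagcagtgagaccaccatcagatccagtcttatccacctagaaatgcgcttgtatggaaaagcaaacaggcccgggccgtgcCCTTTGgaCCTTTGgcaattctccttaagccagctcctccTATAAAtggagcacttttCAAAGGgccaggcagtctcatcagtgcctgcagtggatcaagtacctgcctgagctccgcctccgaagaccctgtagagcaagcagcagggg
Apoa4, chr9:46240594-46240893, plus strand: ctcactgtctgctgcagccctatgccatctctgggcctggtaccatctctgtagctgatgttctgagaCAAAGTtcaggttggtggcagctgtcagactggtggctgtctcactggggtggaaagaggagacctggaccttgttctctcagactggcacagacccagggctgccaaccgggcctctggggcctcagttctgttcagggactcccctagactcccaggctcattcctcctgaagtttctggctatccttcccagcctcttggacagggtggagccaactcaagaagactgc
Apoa2, chr1:171224804-171225103, plus strand: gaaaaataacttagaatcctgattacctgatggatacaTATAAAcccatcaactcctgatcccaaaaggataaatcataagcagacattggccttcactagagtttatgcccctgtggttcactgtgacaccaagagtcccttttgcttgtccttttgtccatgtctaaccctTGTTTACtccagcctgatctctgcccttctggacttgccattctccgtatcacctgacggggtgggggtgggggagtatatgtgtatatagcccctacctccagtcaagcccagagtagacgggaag

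The Apob window held CAAAGG at 3 places, starting at positions -100 and -92 on the minus strand and at -42 on the plus strand relative to the RefSeq start, and TATAAA at -60. The Apoa4 window held CAAAGT at -182, and the Apoa2 window held TGTTTAC at -77 and TATAAA at -212. Mttp had CAAAGG at -239 on the minus strand of its upstream start, and its other coding start, 12011 bases away, was not searched. Apom had none of these motifs. At least 1 of the HNF4 cores was present in 3 of the 5 windows, compared with 31.5% of 27025 mouse promoters of the same length, and TGTTTAC in 1 of 5, against 3.55%. TATAAA was present in 2 of 5, against 14.2%. AGATAA was in none of the 5, against 11.4%. The RefSeq start lies 29 bases from the GENCODE gene start for Apob, 148 for Apoa4, 249 for Apom, 1550 for Mttp (inside the gene) and 0 for Apoa2. The Apoa4 window therefore also covers transcribed sequence of the GENCODE model, and the Apom window lies almost wholly inside that model's transcript, so sequence upstream of the GENCODE start of Apom was not searched. These matches are letters in a window and no evidence of binding.

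States were named from marker lists that contain none of the 6 genes. Of 14 measured visceral endoderm markers, such as Amn, Cubn and Ttr, 13 lay over 1 SD above their mean in state 4, 13 in state 29 and 12 in state 40. State 7 had 15 of 16 gut endoderm markers and 6 of the 14 visceral ones above that limit. State 14 had all 11 parietal endoderm markers, states 0 and 25 each had 13 of 15 extraembryonic ectoderm markers, and state 28 had all 13 markers of differentiated trophoblast. These names describe likeness. The members may have been among the genes the authors clustered on, so a high level in a state is a description of that state.

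All 6 genes had their 3 highest levels in visceral endoderm-like states 4, 29 and 40, a pattern shared by 46 of the 712 genes (6.46%). For Apoa2, Apoa4, Apob, Apom and Mttp the lowest visceral level exceeded every other state by at least 0.5, which 11 genes of the table (1.54%) did. Apoc1 was the exception, with extraembryonic ectoderm-like state 25 only 0.0011 below state 4. With each state centred on its median, 5 of the 6 genes kept this order, and state 25 passed state 4 for Apoc1.

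**Figure D1:**
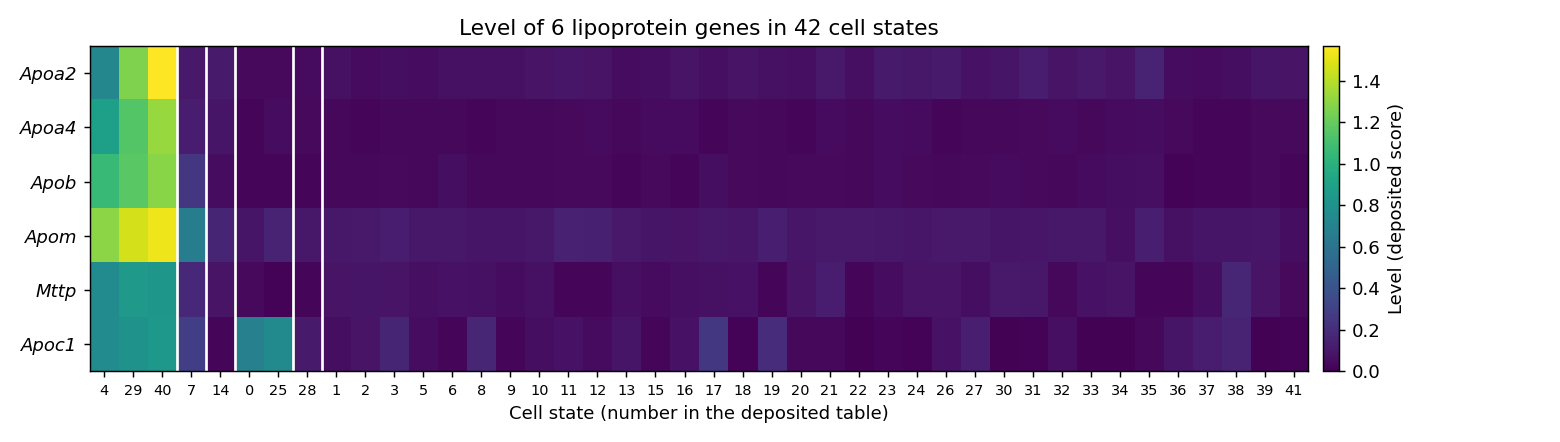
Heat map of the level (deposited score, colour) of the 6 genes (rows) in 42 cell states (columns), with white lines between visceral endoderm-like states 4, 29 and 40, gut endoderm-like state 7, parietal endoderm-like state 14, states 0 and 25 (like extraembryonic ectoderm), state 28 (like differentiated trophoblast) and the other 34 states. All 6 rows are high in states 4, 29 and 40, and Apoc1 is also high in states 0 and 25.

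Both genes of the assembly pair were high in all 3 visceral states. Apob, the particle's structural protein, was at 1.06 in state 4, 1.17 in state 29 and 1.29 in state 40. The next state was gut endoderm-like state 7 at 0.25. Over the 34 states outside the endoderm and trophoblast, Apob ran from 0.017 in state 36 through a median of 0.038 to 0.064 in state 35. It stood at 0.027 to 0.029 in the 3 trophoblast states. The 34 states and the trophoblast states overlapped, and state 7 lay above all of them.

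Mttp, which loads lipid onto Apob, was at 0.76 in state 4, 0.85 in state 29 and 0.83 in state 40, so it was the only 1 of the 6 whose peak was not in state 40. State 7 (0.172) and node and notochord-like state 38 (0.167) came next and differed by 0.0051. Heart-like state 21 stood at 0.118. The other remaining states reached down to 0.022 in state 22, with a median of 0.070 over all 34. The trophoblast states were at 0.042 (state 0), 0.017 (25) and 0.023 (28). State 25 was the lowest of all 42 states.

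Apoa2, of high density lipoproteins, differed between the visceral states, from 0.73 in state 4 through 1.27 in state 29 to 1.57 in state 40. The steps were 0.54 and 0.30. Elsewhere it was low, with 0.105 in state 7, inside the range of the 34 remaining states (0.047 in state 37, median 0.077, 0.156 in state 35). State 35 stayed unnamed, and its leading genes were Crabp1, Ptn and Crabp2. The 3 lowest levels of all 42 were those of trophoblast states 28 (0.044), 25 (0.042) and 0 (0.037). These low levels differ by far less than 0.5, and their order is not supported by any error estimate.

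Apoa4, known from lipid export by the gut, was at 0.89 in state 4, 1.15 in state 29 and 1.33 in state 40. State 7 (0.127) and parietal endoderm-like state 14 (0.088) followed, both above all of the 34 remaining states (0.020 to 0.052, median 0.036). The trophoblast states lay at 0.026, 0.049 and 0.039 in states 0, 25 and 28.

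Apom, the sphingosine-1-phosphate carrier, was at 1.30 in state 4, 1.47 in state 29 and 1.53 in state 40. It was the only 1 of the 6 with a level of at least 0.5 in gut endoderm-like state 7 (0.66). The remaining 34 states lay close together, from 0.056 in state 41 through a median of 0.10 to 0.141 in state 11. State 14 was at 0.163, just above that range, and states 0, 25 and 28 at 0.091, 0.150 and 0.103.

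Apoc1, which modulates particle clearance, had 5 high states. It was at 0.75 in state 4, 0.80 in state 29, 0.84 in state 40, 0.68 in state 0 and 0.75 in state 25. Differentiated trophoblast-like state 28 was at 0.113 and parietal endoderm-like state 14 at 0.030. State 7 (0.29) was followed by epiblast-like states 17 (0.25), 19 (0.20), 8 (0.17) and 3 (0.16), then by node and notochord-like state 38 (0.154) and primordial germ cell-like state 27 (0.133). The median of the 34 remaining states was 0.050 and the lowest level was 0.0064 in state 34, which was led by mesenchymal genes such as Prrx2 and Col3a1. The 4 epiblast-like states thus held the 4 highest levels among the 34, all far below the 5 high states. State 3 was only 0.0080 above state 38, so this order has no support. The leading genes of state 3 also included Eomes, T and Mesp1.

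**Figure D2:**
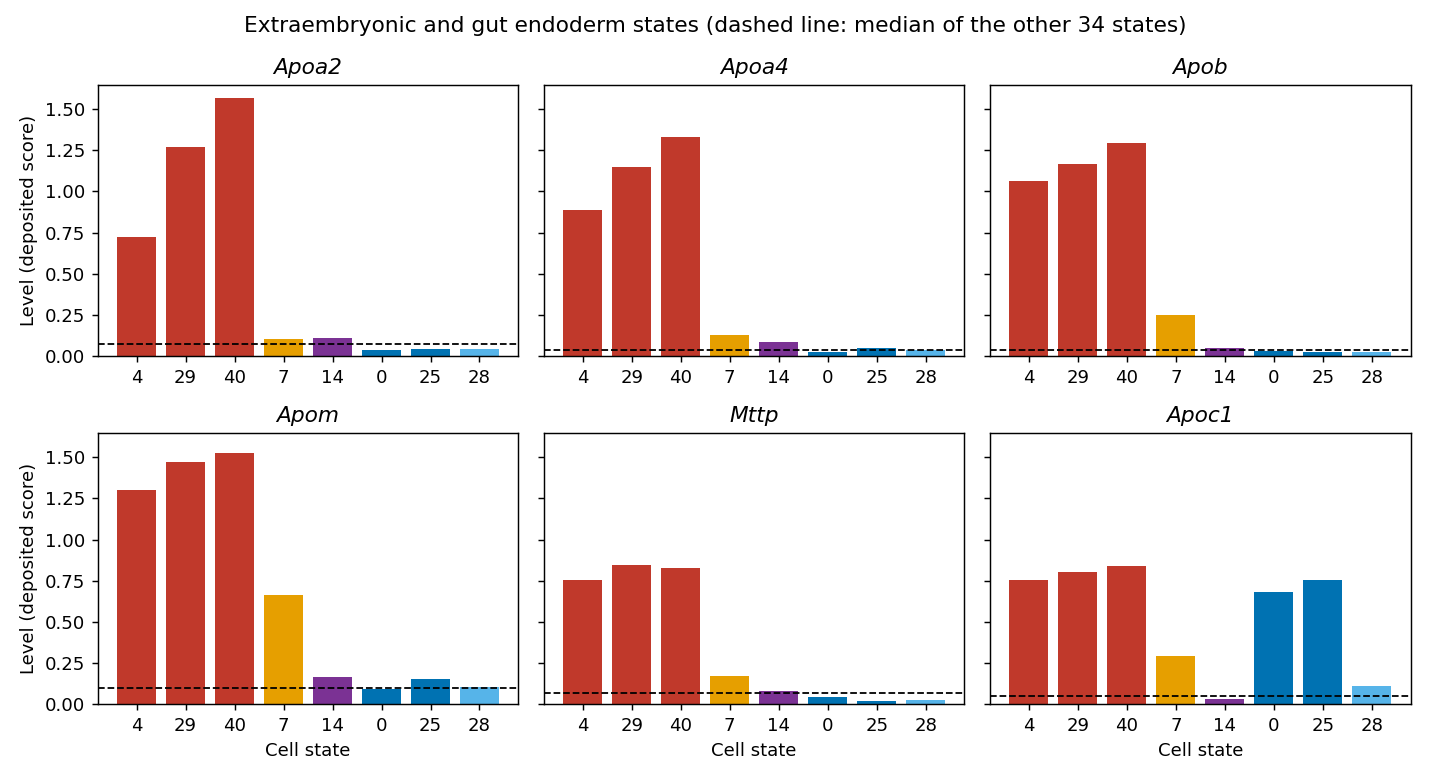
Bars give the level (deposited score, from 0) of each gene in visceral endoderm-like states 4, 29 and 40 (red), gut endoderm-like state 7 (orange), parietal endoderm-like state 14 (purple), states 0 and 25 (dark blue, like extraembryonic ectoderm) and state 28 (light blue, like differentiated trophoblast), with the median of the other 34 states as a dashed line. Apom keeps a bar of 0.66 in state 7, and only Apoc1 has tall bars in states 0 and 25; there are no error bars because the table has no replicates.

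The visceral and gut endoderm are epithelia that meet when visceral cells join the forming gut, and states 4, 29 and 40 were set against state 7. A gene was counted when the class means differed by at least 0.5 and the states did not overlap. All 6 members were higher in states 4, 29 and 40, as were 5.06% of the 712 genes, and no member was lower (2.25% of all genes). The differences in level, visceral mean minus state 7, were 1.08 for Apoa2, 0.99 for Apoa4, 0.92 for Apob, 0.77 for Apom, 0.64 for Mttp and 0.51 for Apoc1. Apoc1 passed by 0.0052, and it was not counted at a threshold of 0.75 or without state 40. The median difference was 0.84 for the 6 and -0.019 for all genes. The genes were picked with such differences already known, so their count is no independent support.

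State 7 itself was not uniform in these genes when set against the median of the 34 remaining states. Apom stood 0.56 above that median, and 3.93% of all genes passed 0.5 in this way. The excess was 0.24 for Apoc1, 0.21 for Apob, 0.103 for Mttp, 0.091 for Apoa4 and 0.028 for Apoa2. Compared with the highest of the 34 states, state 7 was above it by 0.52 for Apom, 0.19 for Apob, 0.075 for Apoa4, 0.042 for Apoc1 and 0.0051 for Mttp, and below it by 0.051 for Apoa2. Visceral carrier genes were present in state 7 as well, with the thyroxine carrier Ttr at 1.11 and the retinol carrier Rbp4 at 0.98. The part of mixed visceral cells or free RNA in these levels was not tested.

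**Figure D3:**
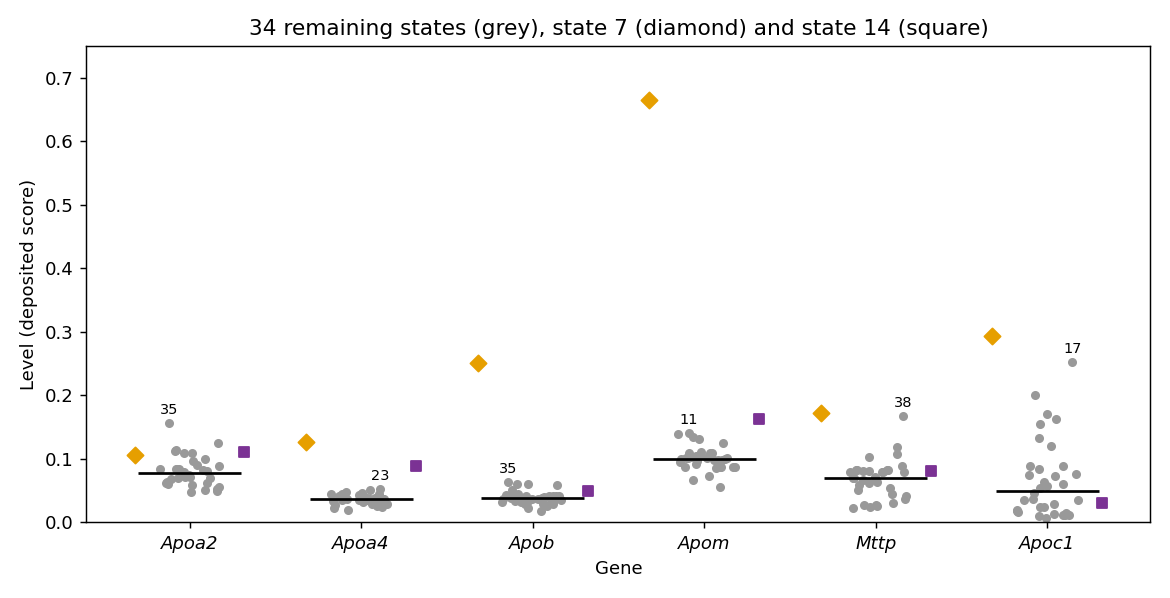
Points give the level (deposited score) of each gene in 34 states (grey; black line, median; the number marks the highest state), with gut endoderm-like state 7 as an orange diamond and parietal endoderm-like state 14 as a purple square. State 7 lies at 0.66 for Apom, far above all grey points, and inside the grey range for Apoa2.

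Parietal endoderm, the other extraembryonic endoderm, secretes basement membrane. All 6 members were higher in states 4, 29 and 40 than in state 14, as were 8.15% of all genes, and none was lower (4.92% of all genes), with differences from 0.73 for Mttp to 1.27 for Apom and a median of 1.05 (all genes 0.0024). State 14 was above the highest of the 34 remaining states by 0.036 for Apoa4 and 0.022 for Apom, and below it for the other 4 genes.

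Against the 3 trophoblast states, 5 of the 6 members were higher in states 4, 29 and 40, as were 7.16% of all genes, and none was lower (2.67% of all genes). The differences were 1.32 for Apom, 1.15 for Apoa2, 1.15 for Apob, 1.08 for Apoa4 and 0.78 for Mttp. Apoc1 differed by 0.28 between the means, or 0.121 between the medians of the states, and was not counted. Against extraembryonic ectoderm-like states 0 and 25 alone, where 7.02% of all genes were higher in states 4, 29 and 40 and 2.67% lower, these 5 members were again counted as higher and Apoc1 differed by 0.081. Within the trophoblast, Apoc1 was the only 1 of the 6 counted as higher in states 0 and 25 than in state 28 (0.72 against 0.113, a difference of 0.61), as were 1.40% of all genes, and no member was lower (2.39% of all genes). The other 5 differed there by -0.0044 to 0.018.

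Only 3 of the 712 genes had states 4, 29, 40, 0 and 25 as their 5 highest, and they are named here after their values were seen. They were Apoc1, the folate receptor gene Folr1 and Morc4. In states 4, 29 and 40 Folr1 was at 0.81, 0.91 and 0.97, in states 0 and 25 at 0.45 and 0.47, and in state 28 at 0.102. Morc4 was at 0.71, 0.85 and 0.91, then at 0.88 and 0.71, and in state 28 at 0.23.

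The 3 visceral states were then set against each other. Levels ran upwards in the order of states 4, 29 and 40 for 5 of the 6 genes, all but Mttp. So did 27.4% of all 712 genes, and 33 of the 46 genes whose 3 highest states are these (71.7%). Only the step of Apoa2 from state 4 to state 29 reached 0.5 (0.54), and the steps of Apoc1 were 0.048 and 0.036. Apoa2 was the only 1 of the 6 higher in states 29 and 40 than in state 4 by the 0.5 rule (difference 0.69), as were 0.421% of all genes, and no member was lower (0.843% of all genes). The difference was 0.35 for Apoa4, 0.20 for Apom, 0.17 for Apob, 0.083 for Mttp and 0.066 for Apoc1. State 4 also carried more gut endoderm markers over 1 SD (7 of 16) than states 29 and 40 (2 of 16 each). Their part in the lower Apoa2 was not tested. The states carry no stage, so their order is not an order in time.

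Across the 42 states, levels of Apoa2, Apoa4, Apob, Apom and Mttp correlated closely with each other (Pearson r 0.94 to 0.99 over their 10 pairs, median 0.976). Apoc1 correlated with them at 0.71 to 0.78. The states may share libraries, and 3 high states carry most of these values. Without states 4, 29 and 40 the 10 pairs ran from 0.21 to 0.94, with Apob and Apom highest, and the 5 pairs with Apoc1 from -0.43 to 0.24. Leaving out state 7 as well brought the 10 pairs to -0.24 to 0.52.

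**Figure D4:**
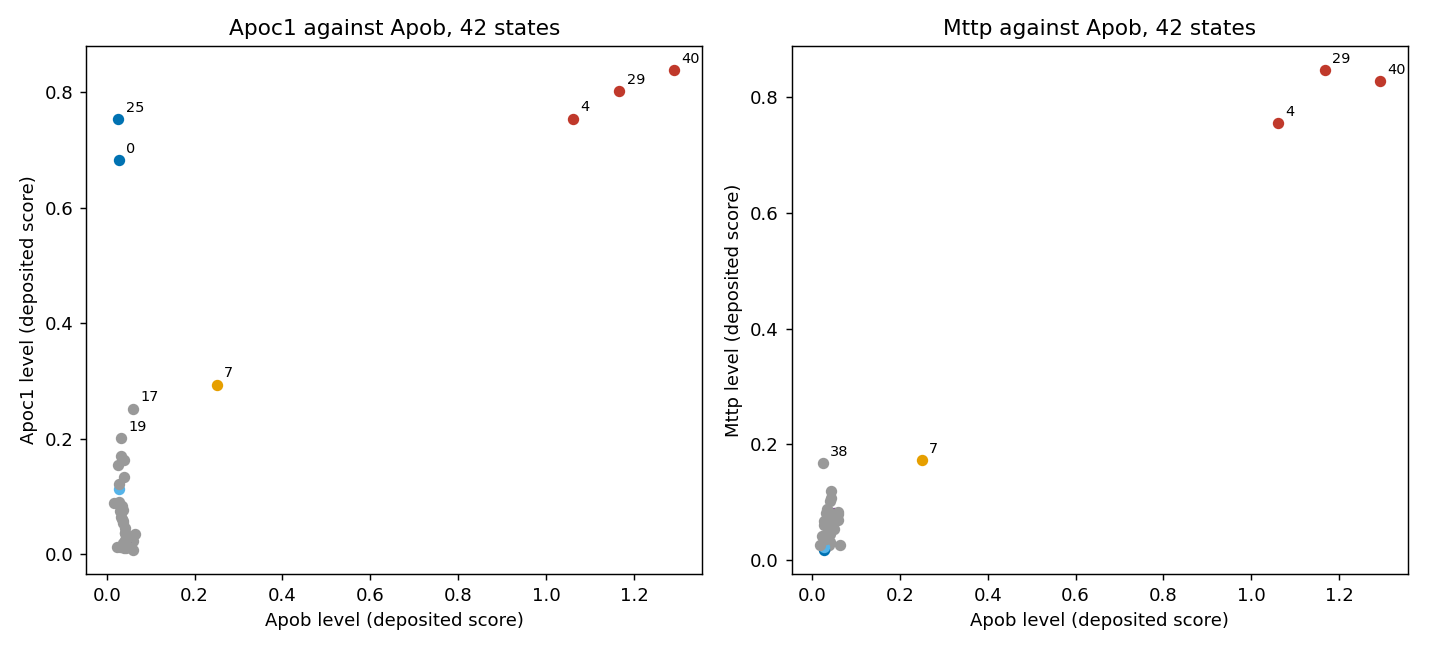
Each point is 1 of 42 states, with the level of Apoc1 (left) or Mttp (right) against that of Apob (deposited scores); red, states 4, 29 and 40; orange, state 7; dark blue, states 0 and 25; light blue, state 28; purple, state 14; grey, others. States 0 and 25 have high Apoc1 at an Apob level of 0.027 to 0.029, and Mttp is high only where Apob is high.

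The 3 genes outside the set closest to each member, by Pearson correlation over 42 states, were as follows. Apoa2 was nearest to the carbonic anhydrase gene Car7 (r = 0.994) and the glucose transporter gene Slc2a2 (0.994), beside a gene not reported here. In Car7, levels were 0.43, 0.82 and 0.93 in states 4, 29 and 40. Apoa4 was nearest to Smlr1 (0.998), the galectin gene Lgals2 (0.996) and the zinc transporter gene Slc39a5 (0.996). Apob was nearest to Slc39a5 (0.997), the sulfate transporter gene Slc13a4 (0.995) and Cubn (0.991), a receptor of protein uptake. Mttp had these same 3 neighbours, with Slc13a4 first (0.987). Apom was nearest to Ttr (0.990), Slc39a5 (0.989) and the chloride channel gene Clic6 (0.988). Apoc1 stood apart, with Folr1 (0.941), Fmr1nb (0.879) and the cell cycle inhibitor gene Cdkn2a (0.864). Without the 3 visceral states, r was lower for every pair named here except Apoc1 with Cdkn2a (0.885). It stayed high for Apom with Slc39a5 (0.968), Ttr (0.964) and Clic6 (0.937), for Apob with Slc39a5 (0.937) and for Apoc1 with Folr1 (0.918). It was 0.24 for Apoa2 with Car7 and 0.23 for Mttp with Cubn.

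Few other genes of the pathway were in the table. Of 24 listed apolipoprotein and plasma lipoprotein genes, 3 were measured. Apoc3, an inhibitor of lipoprotein lipase, was at 0.42, 0.70 and 0.72 in states 4, 29 and 40 and at most 0.021 in the other 39, and it was the only 1 of the 3 higher in the visceral states than in state 7 (5.06% of all genes). Clu, a secreted chaperone also called apolipoprotein J, peaked in node and notochord-like state 23 at 0.78 and reached 0.162 in state 40.

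Of 28 listed genes of assembly and lipid supply, 2 were measured, both of fatty acid binding proteins. Fabp3 was at 1.30 in parietal endoderm-like state 14 and at 1.02, 1.10 and 0.85 in states 0, 25 and 28, against a visceral mean of 0.23. Fabp5 had a visceral mean of 0.36, against 0.93 in state 7 and a median of 1.06 over the 34 remaining states. Neither was counted as higher in states 4, 29 and 40 than in state 7, and Fabp5 was lower (2.25% of all genes).

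All 3 measured uptake genes, of 11 listed, were higher in the visceral states than in state 7 (5.06% of all genes), namely Cubn (1.17 against 0.094), its partner Amn (1.21 against 0.38) and their adaptor Dab2 (1.27 against 0.44). Their levels differed little between states 4, 29 and 40, with Cubn at 1.13, 1.19 and 1.19. These 3 genes are also visceral markers, so their count follows from the naming.

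Of 22 listed secreted plasma carriers 8 were measured, and 3 were higher in the visceral states than in state 7 (5.06% of all genes), namely Ttr, Rbp4 and Afp. Afp, the fetal albumin-like protein, was at 0.92, 1.15 and 1.53 in states 4, 29 and 40. The iron carrier gene Trf was at 0.31, 0.53 and 0.95 in these states. Not all of the 8 were highest there. Vtn had a visceral mean of 0.0096, against 0.33 in state 7, and peaked in node and notochord-like state 23 at 0.71. F10 peaked in state 36 at 0.52, with a visceral mean of 0.29. Ttr, Rbp4, Afp and Trf are markers that named the states.

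Of 19 listed transcription factor genes of liver and yolk sac endoderm 9 were measured, and none was counted as higher or lower in the visceral states than in state 7, where 5.06% of all genes were higher and 2.25% lower, so that a count of 0 in 9 genes lies near the background. The forkhead gene Foxa2 was at 0.45, 0.32 and 0.32 in states 4, 29 and 40, and at 0.47 in state 7. Gata4 was at 0.44, 0.37 and 0.21, and at 0.139 in state 7. Both were also present in parietal endoderm-like state 14, Foxa2 at 0.48 and Gata4 at 0.70. A link between the levels of these factors and those of the 6 lipoprotein genes was not tested. Against state 14, 3 of the 9 were lower in the visceral states (4.92% of all genes), namely Gata6 (0.22 against 0.97), Sox7 (0.086 against 0.67) and Sox17 (0.27 against 0.78). Gata6 and Sox7 are parietal endoderm markers that named state 14, so their part of the count follows from the naming. Sox17 was on the visceral and gut endoderm lists, and it was uneven over states 4, 29 and 40 (0.50, 0.26 and 0.050). Hnf4a is not among the 712 genes.

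Low levels of the 6 genes were found in every one of the 34 states outside endoderm and trophoblast. The carriers Ttr (0.164 to 0.35, median 0.24) and Rbp4 (0.099 to 0.37, median 0.22) were present there too. Across these 34 states, r with Ttr, Rbp4 and Afp in turn was 0.61, 0.71 and 0.61 for Apoa2, and 0.77, 0.70 and 0.75 for Apoa4. It was 0.43, 0.28 and 0.36 for Apob, and 0.50, 0.13 and -0.18 for Apom. It was -0.23, 0.018 and -0.0077 for Mttp, and -0.42, -0.65 and -0.75 for Apoc1. The 34 states may share libraries and their depth is unknown. The part of free RNA from visceral cells in these low levels was not tested.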

How the data were processed

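Per the labels' protocols, pooled embryos were dissociated with TrypLE and cells were captured with 10x Genomics 3' chemistry (v2). Per the submitters' processing notes, Cell Ranger and genome build mm10 were used. The deposited score is the cluster centre of a gene in a cell state, per the file headers. Its normalization, log base, doublet removal, clustering and gene choice are not given in the sources used here, so levels were compared by subtraction, levels of different genes were not ranked, and no fold change is given. The description of 1 library labelled day 8.5 names day 8.0, which touches no value here.

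The depth per state is unknown. The 42 columns name no library and were read as pools of the 8, so nothing could be tested between samples. Each count of members stands beside the share of all 712 genes. A state was named when its best marker list had a median above 1 SD, at least 3 markers over 1 SD and the most markers among its 10 leading genes; the median limit was set after the values were seen. The members, lists and motifs were chosen with earlier results of these data known. Named genes were the 6 members, the 3 nearest genes of each and measured genes of the lists; Morc4, Xist and the leading genes of states were named after their values were seen; a few genes and 1 motif are not reported here. The code used Python, pandas 2.3.3 and numpy 2.4.6. Its rule for counting a gene as higher was tested on differences planted in shuffled levels, and its other steps were not tested in this way. Each planted gene had 1 level in all visceral states, so the planted size alone fixed its count. How the rule behaves with spread between states was not covered. Alternatives changed the threshold, the centring, the scaling, the states of a class, the median in place of the mean over states, the correlation and the promoter window.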

Additional observations from a re-analysis of the deposited data

How the results depend on the processing

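No paired analysis was possible because the columns name no library and carry no replicate number. The counts of members higher in states 4, 29 and 40 (6 against state 7, 5 against the trophoblast, 6 against state 14) changed to 4, 5 and 5 at a threshold of 0.75, where Apoc1 and Mttp ended against state 7 and Mttp against state 14, and to 6, 6 and 6 at 0.25, where Apoc1 was added against the trophoblast. Without state 40 the count against state 7 was 5, without Apoc1. These counts did not change with centring, division by each gene's highest level, or leaving out state 4 or 29. Centring left 5 of 6 members with states 4, 29 and 40 as their 3 highest, an alternative chosen after seeing the data. Genes higher in states 29 and 40 than in state 4 numbered 1, but 2 at a threshold of 0.25, 0 at 0.75 and 0 after division by the highest level. The count of 1 in states 0 and 25 over state 28 became 0 at 0.75, and so did the count of 1 in state 7. The median correlation among the 5 genes other than Apoc1 was 0.976, but 0.43 by Spearman's measure, 0.42 without states 4, 29 and 40 and 0.21 without state 7 as well. For Apoc1 with the others it was 0.757, but -0.075 by Spearman's measure, 0.056 without the visceral states and -0.26 without state 7 as well, so these close correlations rest on 3 or 4 states. The alternatives without state 7, and those for state 7 against the remaining states, were chosen after seeing the data. Centring moved no difference of a member by more than 0.068. The cause of the other changes was not tested. Unknown depth limits all levels near 0.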

Other observations

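Levels of the 6 genes were also read in the 5 states with the lowest Xist, the non-coding RNA of X inactivation. Xist was at 0.45 in state 22, the next lowest, and at 0.13 to 0.30 in these 5. These states were picked after the values had been seen, and each was set beside the state outside these 5 that it correlated with best across genes, leaving out Xist and the 6 lipoprotein genes. The correlation was 0.96 for states 25 and 0, 0.95 for 19 and 8, and 0.80 for 11 and 1. It was 0.79 for states 35 and 33 and 0.64 for 12 and 30, so the pairs were not equally alike. Xist was at 0.60 to 1.04 in the states they were set beside. Mttp was lower in all 5 pairs, at 0.017 in state 25 and 0.042 in state 0, 0.025 in state 19 and 0.071 in state 8, 0.026 in state 35 and 0.079 in state 33, 0.026 in state 11 and 0.080 in state 1, and 0.030 in state 12 and 0.107 in state 30. Apom was higher in all 5, at 0.150 and 0.091, 0.131 and 0.088, 0.133 and 0.103, 0.141 and 0.102, and 0.138 and 0.092 in the same pairs. Apoc1 and Apoa4 were also higher in all 5, by 0.015 to 0.072 and by 0.0028 to 0.023, while Apoa2 and Apob had pairs in both directions. Of all 712 genes, 13.6% were lower and 11.1% higher in all 5 pairs. The pairs are not independent repeats, so the same direction in all 5 is a description only. Mttp was the only 1 of the 6 members lower in all 5, which is near the share of all genes. All of these differences are under 0.1 in level, have no error estimate, and were not tested.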
